A study of Mus musculus with 2 samples.

Results

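Profilins and the proteins that take actin from them were examined in a mouse colorectal cancer line and in a derivative of it recovered from the lung. The 10 genes were chosen by symbol: the profilins Pfn1 and Pfn2, the formins Diaph1, Diaph2, Diaph3, Daam1 and Fmnl2, and the Ena/VASP genes Enah, Vasp and Evl. All 10 were on the array, among 18193 named genes, and they had 25 of the 45037 probe sets. The parental group was CMT-93, a mouse rectal carcinoma line. The lung-recovered group was CMT-93-PM1. It was grown in primary culture from tumours that formed in the lungs of female C57BL/6 mice, which were 6 weeks old when parental cells were given through the tail vein and were killed 8 weeks later. The labels name no engineered allele and no drug for either line, and both grew in the same serum-containing medium with antibiotics and an antifungal. The sources used here do not give the number of tumours or mice behind CMT-93-PM1. The comparison asks which actin regulators read differently in the lung-derived line than in its parent, and the series title names profilin 2.

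Profilin binds actin monomers, helps them reload with ATP, and hands them to growing filament ends. Formins and Ena/VASP proteins sit on those ends and catch profilin-bound actin through proline-rich stretches. Formins nucleate and elongate unbranched filaments of stress fibres, filopodia and the cell cortex, while Ena/VASP proteins elongate filaments at leading edges and adhesions. In gut epithelium this machinery serves the brush border, the junctional belt and cell migration.

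Pfn2 and Diaph2 were the genes of this group that stood furthest above the parental line, and the stretches around their transcription start sites are shown for that reason, with Pfn1 as the profilin that read alike on both arrays. The sequences are RefSeq promoters of build GRCm38.p6, each from 250 bases before to 50 bases after the start, printed 5′ to 3′ on the gene's strand. That table held promoters of 9 of the 10 genes, all but Diaph1. They lie at chr3:57847708-57848007 on the minus strand (Pfn2), chrX:129749492-129749791 on the plus strand (Diaph2) and chr11:70654601-70654900 on the minus strand (Pfn1). Capitals mark the E-box motif CACGTG.
Pfn2: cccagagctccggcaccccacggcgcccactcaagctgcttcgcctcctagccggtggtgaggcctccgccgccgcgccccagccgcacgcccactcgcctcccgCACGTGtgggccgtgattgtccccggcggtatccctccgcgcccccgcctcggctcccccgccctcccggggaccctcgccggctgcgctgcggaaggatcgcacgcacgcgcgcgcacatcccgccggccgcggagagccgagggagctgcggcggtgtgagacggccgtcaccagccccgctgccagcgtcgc
Diaph2: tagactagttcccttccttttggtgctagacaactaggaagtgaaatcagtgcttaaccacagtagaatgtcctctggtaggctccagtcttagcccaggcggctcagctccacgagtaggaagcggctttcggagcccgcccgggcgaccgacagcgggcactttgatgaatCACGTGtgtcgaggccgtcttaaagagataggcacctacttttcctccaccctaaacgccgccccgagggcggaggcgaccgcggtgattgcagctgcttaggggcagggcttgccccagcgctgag
Pfn1: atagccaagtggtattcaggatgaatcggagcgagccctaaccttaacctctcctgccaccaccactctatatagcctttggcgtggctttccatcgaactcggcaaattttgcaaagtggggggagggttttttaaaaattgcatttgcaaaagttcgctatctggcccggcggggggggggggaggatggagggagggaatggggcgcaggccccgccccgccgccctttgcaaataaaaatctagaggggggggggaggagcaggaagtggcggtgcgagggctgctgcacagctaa

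The Pfn2 promoter was rich in CG dinucleotides, with 45 of them and 77.7% G and C, against 20 and 58.7% for Diaph2 and 14 and 57.0% for Pfn1. This was not particular to Pfn2: Enah had 49 and 83.3%, and Fmnl2 49 and 78.7%, and both genes were within 2-fold between the lines. The median over all 32851 promoters of this length was 7 dinucleotides and 52.7% G and C. CACGTG, which reads the same on both strands, began 145 bases before the start in Pfn2 and 77 bases before it in Diaph2. None of the promoters of the other 7 genes in the table held it, and 7.15% of all promoters did. CACGTG holds a CG itself, and none of the shares of all promoters given here was matched for CG dinucleotides. This motif was singled out after the sequences had been read. TGANTCA (AP-1), searched on both strands, was found among these genes in Diaph2 alone, and in 7.81% of all promoters. GGGCGG (GC box, both strands) occurred 1 time in Pfn2, 3 times in Diaph2 and 2 times in Pfn1, and in 35.7% of all promoters. It also occurred 6 times in Enah, 4 times in Fmnl2 and 3 times in 1 promoter each of Daam1 and Evl. GGAATG (TEAD, both strands) occurred in Pfn1 and Evl and in 14.7% of all promoters. TATAAA and the CArG box bound by SRF, also searched on both strands, were in none of the promoters of these genes, against 13.6% and 1.63% of all promoters. These are matches of letters and not binding sites.

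Signals are log2 values as deposited, 1 array per line, so no value has a replicate error and no difference can be tested, and line, culture and hybridization cannot be told apart. A probe set at or below the 40th percentile of its array, 4.69 log2 for the parental and 4.59 for the lung-recovered array, was taken as being at the floor. A log2 ratio is the lung-recovered minus the parental signal, and with the parental signal at the floor it is a lower bound computed from that floor. Of the 25 probe sets, 21 were above the floor on both arrays, 2 were at the floor on the parental array, 1 on the lung-recovered array and 1 on both. The sets nearest the limit from above were 1436993_x_at of Pfn2, 0.04 log2 above it on the parental array, and 1445391_at of Diaph1, 0.12 above it on the lung-recovered array. Nearest from below were 1458662_at of Daam1 (4.37 on the lung-recovered array) and 1418210_at of Pfn2 (4.29 on the parental array). The 2 arrays had median signals of 5.36 log2 (parental) and 5.26 (lung-recovered).

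Epithelial markers were bright in both cultures. Of 15 colorectal epithelial markers, 11 were above the floor on both arrays, with the keratin gene Krt19 brightest (12.72 log2 in the parental, 12.98 in the lung-recovered line; value pairs below keep this order). The markers Vil1, Cdx1, Krt20 and Lgals4, of differentiated or intestinal epithelium, read at the floor in both lines. Gpa33, an intestinal surface antigen, read 6.85 and 7.92 and was 2.10-fold higher. For cells that a lung tumour culture could also hold, the fibroblast and mural markers had 5 of 13 genes above the floor on each array and summed linear signals of 410 and 344. Col1a1, Col3a1, Pdgfra and Lum were at the floor on both, and Des was brightest at 6.78 and 6.23 log2. Endothelial markers had 4 of 12 genes above the floor on each array, with sums of 1139 and 1297. Pecam1, Emcn and Vwf read at the floor in both lines and Esam was brightest on the parental array (8.93 and 8.70), while Cdh5 was at least 24.4-fold higher (4.21 and 9.30) and Tek at least 15.8-fold lower (8.57 and 3.43). Leukocyte markers had 8 of 12 genes above the floor on each array, with sums of 2036 and 1190, and Ptprc, which marks all leukocytes, was at the floor on both. Cd14 was brightest (10.63 and 9.14, 2.81-fold lower), and Cd68 (5.23 and 7.05) and Csf1r (6.42 and 7.54) were higher by 3.53-fold and, by its brightest probe set, 2.17-fold. The other Csf1r sets had log2 differences of 0.78 and 0.02. Adgre1, Itgam and Tyrobp read at the floor in both lines, and Lyz2 (5.53 and 5.53) and Fcer1g (5.09 and 5.10) were equal or nearly so. Lung epithelial markers had 9 of 13 genes above the floor in the parental and 8 in the lung-recovered line, with sums of 2512 and 1817. Aqp5 was brightest (10.68 and 10.01), Napsa was 4.14-fold lower (7.74 and 5.69), and Scgb1a1, Sftpa1 and Nkx2-1 read at the floor in both lines.

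Of the 10 genes, 2 were at least 2-fold higher in the lung-recovered line, Pfn2 and Diaph2, a share that was 4.42% among all 13332 measured genes. None (0 of 10) was at least 2-fold lower, against 2.55% of measured genes. The other 8 had log2 ratios between -0.11 and 0.83. The median over the 10 was 0.37 and that over all measured genes 0.00, and 8 of the 10 had ratios above 0, as did 49.2% of all measured genes. At 1.5-fold the count was 4 higher and 0 lower, against 11.5% and 6.95% of measured genes, with Diaph3 and Fmnl2 added. Counted by probe set, 5 of 24 measured were at least 2-fold higher and 0 lower, against 3.74% and 3.08% of all measured probe sets, and all 5 belonged to Pfn2 or Diaph2. The genes were listed with earlier results of these data known, so these counts describe the group and are not support for it.

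**Figure D1:**
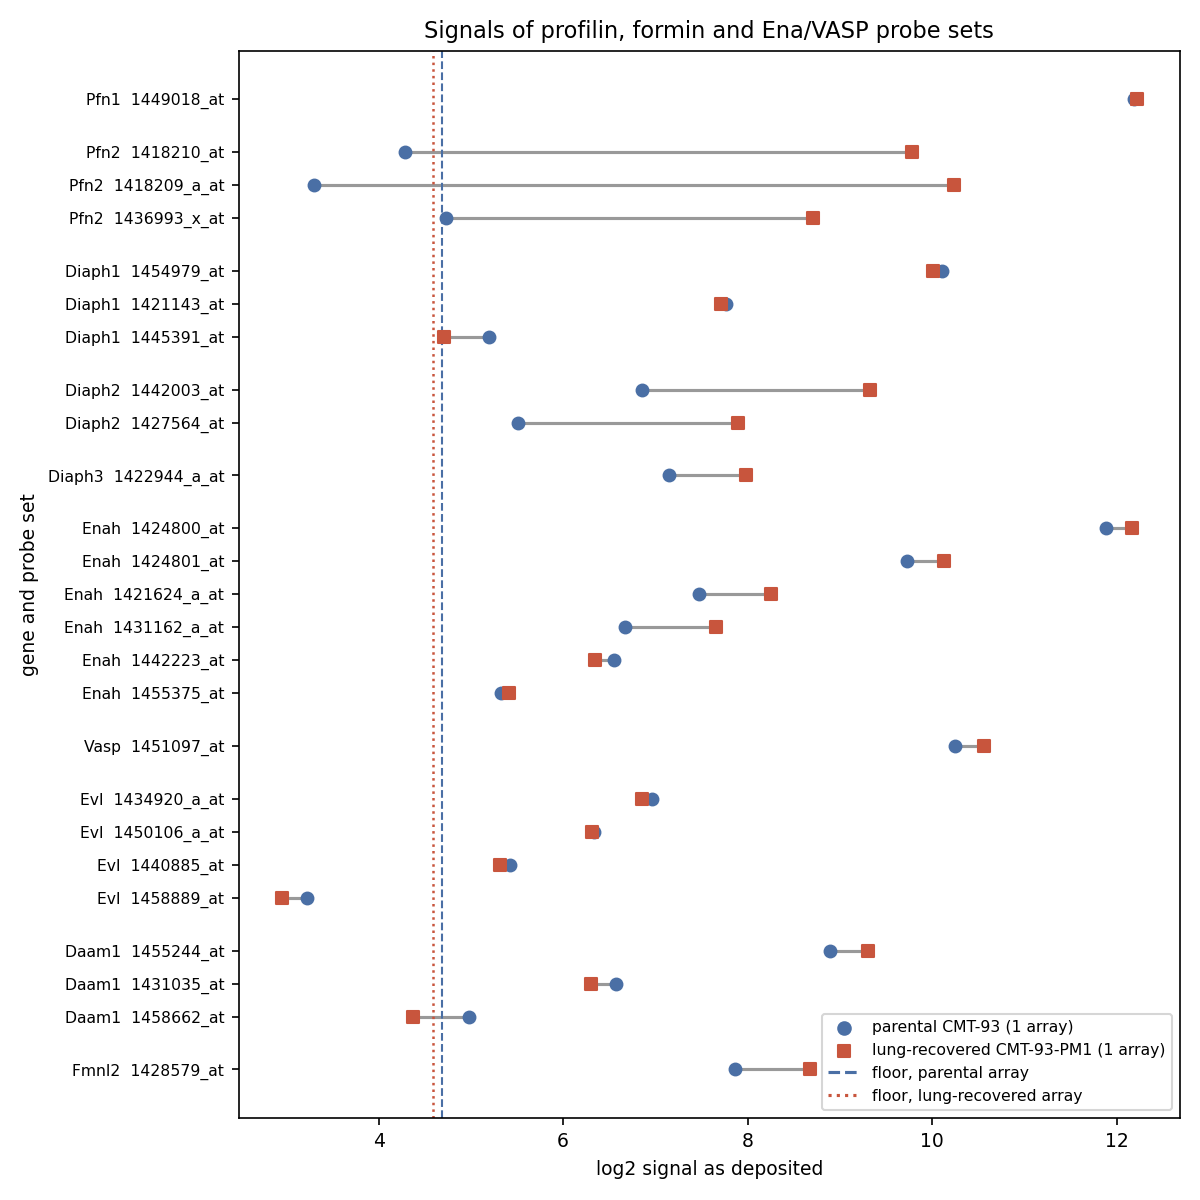
Log2 signal (x axis) of each of the 25 probe sets (y axis, grouped by gene) on the parental array (blue circles) and the lung-recovered array (red squares), 1 array each, with the floor of each array as a vertical line. The 3 Pfn2 probe sets run from at or near the floor to between 8.71 and 10.24, both Diaph2 probe sets run upward by 2.39 and 2.47, and the pairs of the other genes lie within 1 log2 unit of each other.

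The profilins differed from each other in how they compared between the lines. Pfn1, the widely expressed profilin, had 1 probe set, which read 12.19 and 12.22 log2. Its log2 ratio was 0.03, and between 0.01 and 0.13 under the scalings and other alternatives tried. Pfn2, the profilin best known from neurons, read 4.29 and 9.78 by the probe set of highest mean signal (1418210_at), a difference of at least 34.1-fold from a parental signal at the floor. By 1418209_a_at it read 3.30 and 10.24, and by 1436993_x_at 4.73 and 8.71. All 3 sets were therefore near or under the floor in the parental line and far above it in the lung-recovered line. The log2 ratios were at least 5.09, at least 5.55 and 3.98. Only 3 of the 13332 measured genes had a higher ratio than Pfn2, with bounds taken at their bound.

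The spread between the Pfn2 probe sets was wide, with an SD of 0.81 log2 over 3 ratios, 2 of them bounds. Over the 6172 genes with several measured probe sets the median of that SD was 0.18 and its 90th percentile 0.52. In the Affymetrix naming, the suffix _a_at marks a set whose probes match several transcripts of 1 gene, and _x_at one with probes that resemble other sequences. The series title speaks of Pfn2 isoforms, and the probe sets were not assigned to isoforms here because no probe sequences were used. The other profilin genes, Pfn3 (3.39 and 3.93) and Pfn4 (3.09 and 3.0), stayed at the floor in both lines, so neither has a ratio. The size of the Pfn2 bound follows the floor, with a log2 ratio of 3.60 for a floor at the 60th percentile and 5.49 with no floor.

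Diaph2 was the formin furthest apart. The 3 Diaph genes encode diaphanous-related formins, which are held closed by an intramolecular contact until activated, and protein and gene numbers are crossed in the mouse: RefSeq lists Dia3 as a synonym of Diaph2 and Dia2 as a synonym of Diaph3. By 1442003_at Diaph2 read 6.86 and 9.33 log2, 5.54-fold higher, and 5.51 and 7.90 by 1427564_at, 5.24-fold higher. Both sets were above the floor on both arrays and gave nearly the same ratio, with an SD of 0.06. Diaph2 ranked 55 among the measured genes by log2 ratio, counted from the highest.

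Diaph3, whose product acts in filopodia and in cell division, had 1 probe set at 7.15 and 7.98, 1.78-fold higher in the lung-recovered line. Diaph1, a formin of stress fibres and cell junctions, read 10.11 and 10.01 by its brightest probe set, 7.77 and 7.71 by the second and 5.20 and 4.71 by the dimmest. The ratios were -0.10, -0.06 and -0.49, and that of the brightest set became 0.00 when the arrays were shifted to the same median. The 3 Diaph genes thus had brightest-set ratios of 2.47, 0.83 and -0.10. The SD between probe sets was 0.06 for Diaph2 and 0.24 for Diaph1, and it holds technical spread within these arrays only.

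Fmnl2, a formin of lamellipodia and cell junctions, had 1 probe set at 7.86 and 8.68, 1.77-fold higher. Daam1, which links Dishevelled of the Wnt pathway to actin, read 8.89 and 9.31 by its brightest probe set, 1.34-fold higher. Its other sets went the other way, at 6.57 and 6.30, and at 4.98 and 4.37, the last at the floor of the lung-recovered array and so at least 1.31-fold lower. The median over its probe sets was -0.27 log2, so Daam1 has no settled direction in these data.

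**Figure D2:**
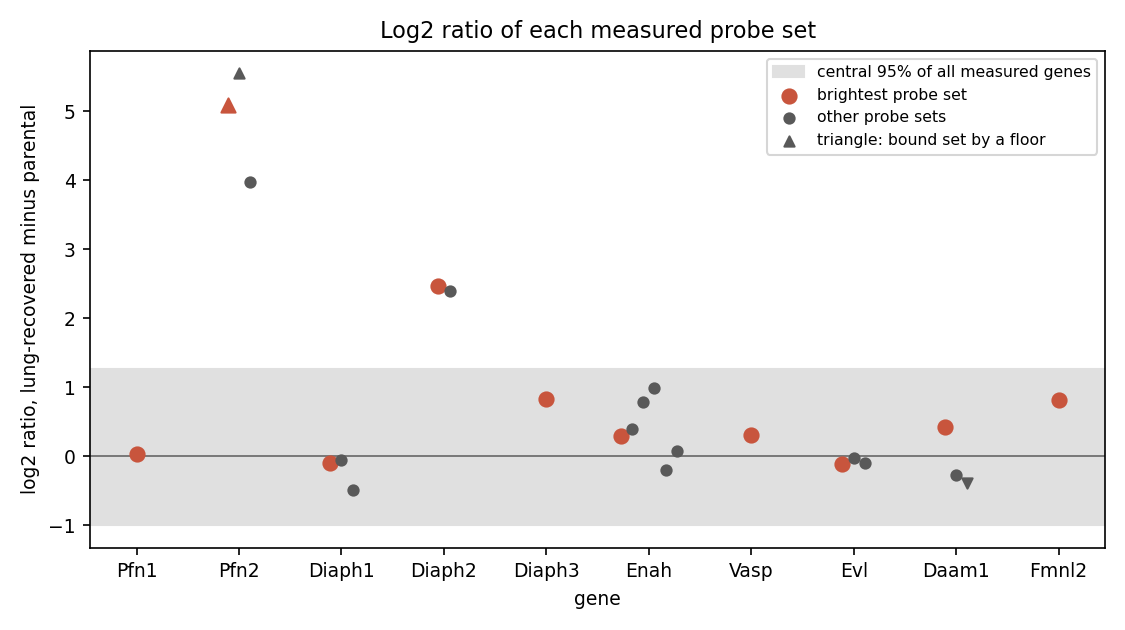
Log2 ratio, lung-recovered minus parental (y axis), of each of the 24 measured probe sets by gene (x axis), with the probe set of highest mean signal in red, the others in grey, and bounds set by a floor as triangles. The grey band runs from -1.0 to 1.26 and holds the central 95% of all measured genes, and the sets outside it are those of Pfn2 and Diaph2.

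The Ena/VASP genes were close to equal by their brightest probe sets. Enah, which encodes Mena, the family member most studied in invasive tumour cells, had 6 probe sets. The brightest (1424800_at) read 11.88 and 12.17 and the next (1424801_at) 9.73 and 10.13, with ratios of 0.29 and 0.40. The sets with the suffix _a_at had the highest ratios of this gene, 0.78 for 1421624_a_at (7.47 and 8.25) and 0.99 for 1431162_a_at (6.67 and 7.66). The latter was 1.99-fold higher, just under the 2-fold line. The remaining sets read 6.55 and 6.35, and 5.33 and 5.41. The ratios of Enah thus ran from -0.20 to 0.99 with an SD of 0.44, a wider spread than the median of 0.18 over all genes and narrower than the 90th percentile of 0.52.

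Vasp, the founding member of the family, had 1 probe set at 10.25 and 10.56, 1.24-fold higher. Evl, the third member, read 6.96 and 6.85, 6.34 and 6.31, and 5.42 and 5.32 by its measured probe sets, and 3.22 and 2.95 by one that was at the floor on both arrays. The measured ratios of Evl lay between -0.11 and -0.03 with an SD of 0.04. Shifting the arrays to the same median moved that of its brightest set to -0.01. The signs of Pfn1, Diaph1 and Evl therefore rest on differences no larger than the offset between the arrays' medians, or close to it.

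**Figure D3:**
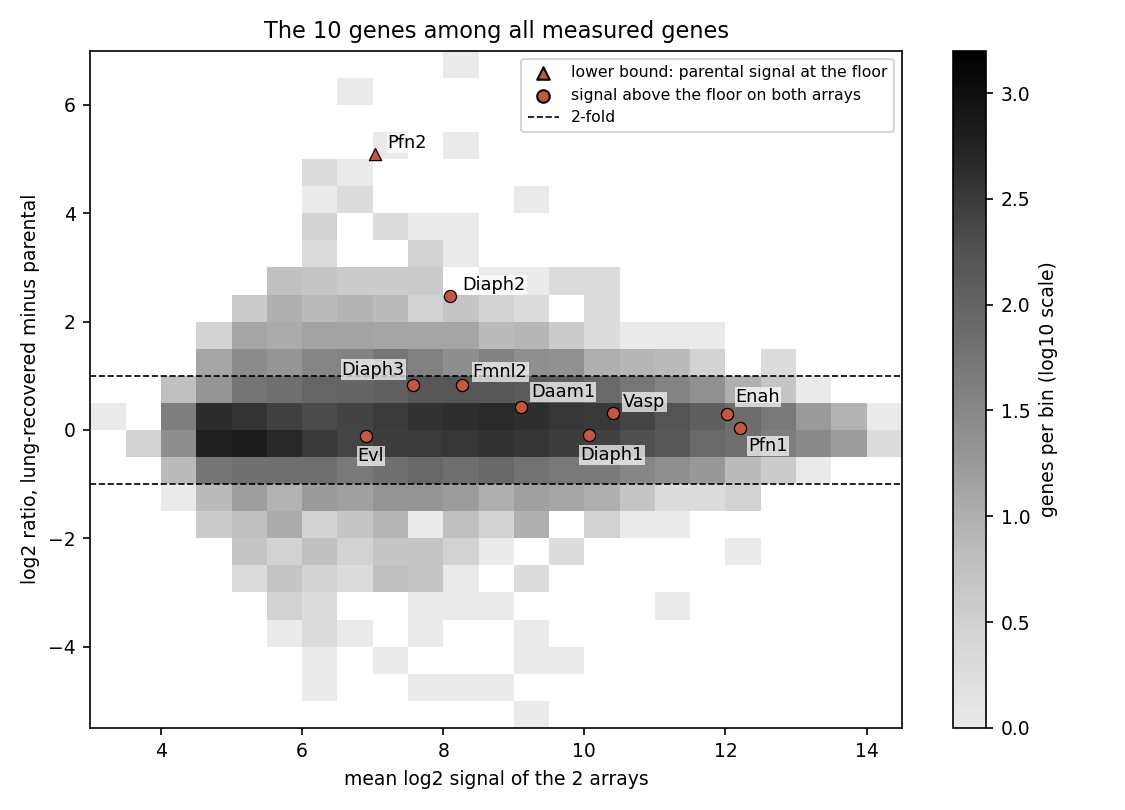
Log2 ratio (y axis) against the mean log2 signal of the 2 arrays (x axis) for the 10 genes (red), over counts of all 13332 measured genes in bins of 0.5 (grey, log10 scale). The dashed lines mark 2-fold, Pfn2 (triangle, a lower bound) and Diaph2 lie above the upper line, and the other 8 lie between the lines.

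Of 10 profilin and formin genes on the array outside the group, 5 were measured, 2 with ratios above 0 and 3 below, and 0 passed 2-fold in either direction by the brightest probe set. Fmn1, a formin of cell junctions, read 7.54 and 8.20, 1.58-fold higher, and 5.54 and 6.74 by its dimmer set, 2.30-fold higher. Inf2, which both assembles and severs filaments, read 7.59 and 8.03, and 6.49 and 6.58 by a dimmer set. Fhod1 (8.38 and 8.21) and Grid2ip (5.76 and 5.39) had ratios of -0.17 and -0.37, and Fmnl1 (4.97 and 4.36, the latter at the floor) was at least 1.30-fold lower. Daam2, Fhod3 and Fmn2 did not leave the floor in either line.

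Of 29 measured partners that bind profilin or Ena/VASP proteins or sit with them at adhesions, 2 lay at least 2-fold up and 0 down, and 25 ratios were above 0 and 4 below, around a median of 0.20. Over all measured genes the shares were 4.42% up, 2.55% down and 49.2% above 0, so 2 of 29 is near the background. Baiap2, which encodes a membrane-bending adaptor that binds Mena, was 2.89-fold higher by 1425656_a_at (7.18 and 8.71), but its other sets had ratios of 0.11, 0.00 and -0.37. Pdlim1, an adaptor of the actin-binding protein actinin, read 11.04 and 12.18 and was 2.20-fold higher, while a dim set read 5.72 on both arrays. Neither gene was past 2-fold by the median over its probe sets, at 0.06 and 0.57 log2. Next were Wasf1, a WAVE complex subunit that activates filament branching (8.72 and 9.68), Baiap2l1 and the zyxin relative Lpp, both at 0.75, and Gphn, which encodes the synaptic scaffold gephyrin. Gphn read 9.84 and 9.05 by its brightest set and 8.25 and 9.43 by the next, so its probe sets disagreed.

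Actins and the proteins that bind monomers or cap filaments were mostly equal, with a median of 0.03 over 23 measured genes, 12 ratios above 0 and 10 below. The single gene past 2-fold, a share near the 4.42% of all measured genes, was Spire1, whose product nucleates actin together with formins of the Fmn group. It read 3.15 and 6.63, at least 3.84-fold higher, and 3.09 and 6.30 by a second set, at least 3.05-fold higher, while its remaining 3 sets read at the floor in both lines. With the floor at the 60th percentile its ratio was 0.45. Below 2-fold by the brightest set was Mtss1, a membrane-bending actin-binding protein (9.47 and 10.38), whose other measured sets had ratios of 1.30, 0.99, 0.17 and -0.42. Also below it were Cap1, which recycles monomers (9.64 and 10.25, and 9.38 and 10.20), and the monomer-binding protein gene Twf2 (9.38 and 8.82, and 8.22 and 7.67).

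The MRTF coactivators are held back by free actin monomers and, once released, switch on target genes together with the transcription factor SRF. The list holds Srf, Mrtfa, Mrtfb and Scai beside SRF targets, and it does not separate targets of MRTF from other SRF targets. Of its 26 measured genes, 4 lay at least 2-fold up and 0 down, and 20 ratios were above 0 and 6 below. The median was 0.35, where 4.42% of all measured genes lay 2-fold up, 2.55% down and 49.2% above 0. The immediate early genes Egr1 (8.12 and 11.08) and Fos (7.63 and 9.79) were 7.78-fold and 4.47-fold higher. Ccn1, which encodes a matricellular protein, was 2.62-fold higher by each of 2 probe sets (11.14 and 12.53 for the brightest) and had ratios of 0.19 and 0.23 by the others. Mrtfa itself read 6.49 and 7.55 and was 2.08-fold higher. The next ratios were those of Fhl1 (0.89), Tpm2 (0.70, with dimmer sets at -0.16 and at least 0.10) and the adhesion protein gene Zyx, which is also among the partners above and read 10.87 and 10.19. Of the remaining members, Acta2, Actg1, Tagln2, Mrtfb and Fhl3 had brightest-set ratios of -0.19, -0.17, -0.21, -0.16 and -0.34, and Tagln and Srf 0.03 and 0.07. Actb, Cnn2, Filip1l, Flna, Itga5, Junb, Myh9, Pdlim7, Scai and Tpm1 lay between 0.01 and 0.45. Vcl was at 0.65, with 1.12 by a dimmer set, and Fhl2 at 0.60. Cnn1, Myl9, Ccn2 and Tgfb1i1 read at the floor in both lines. The activity of MRTF and SRF was not tested. Some genes stand in more than 1 list, so the lists are not independent of each other.

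**Figure D4:**
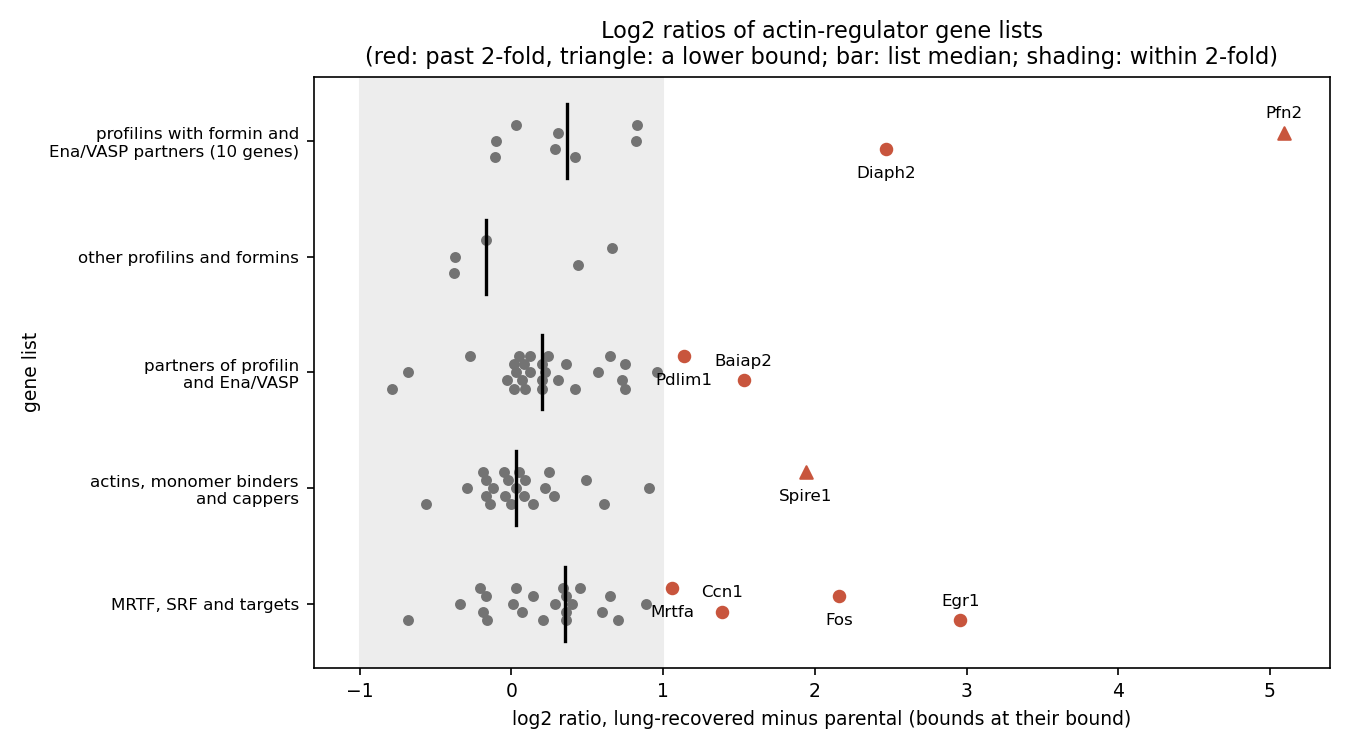
Log2 ratios, lung-recovered minus parental (x axis), of the measured genes of the 10-gene group and the 4 other actin-regulator lists (rows; the marker lists are not drawn), with genes past 2-fold in red and named, lower bounds as triangles, and a bar at each list's median. Pfn2 at 5.09 is the furthest point, the drawn genes past 2-fold are all on the higher side, and the drawn medians run from -0.17 to 0.37.

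The genes whose readings lay nearest to those of Pfn2 were taken from the 414 genes at the floor on the parental array and above it on the lung-recovered array, by distance on the lung-recovered array from the Pfn2 set of highest mean signal, 1418210_at (9.78). Since 2 arrays give no correlation, this measure of likeness rests on 1 array, and probe sets of different genes differ in how strongly they bind, so it ranks readings and not transcript levels. The nearest 5 were the protocadherin-related gene Cdhr2 (3.41 and 9.46), the endothelial cadherin gene Cdh5 (4.21 and 9.30), the glycosyltransferase gene Gcnt1 (3.21 and 9.25), the dynein subunit gene Dync1i1 (4.13 and 8.87) and the teneurin gene Tenm2 (3.24 and 10.74). Second probe sets of Cdh5 (3.98 and 5.52) and Gcnt1 (4.51 and 5.65) were at least 1.78-fold and at least 1.95-fold higher. Tenm2 had 2 further sets above the floor on the parental array, one 5.90-fold higher (4.82 and 7.38) and one that went the other way (4.83 and 4.44). Of the 414 genes, 2 were brighter than that Pfn2 set on the lung-recovered array, and 81 were at least 2-fold higher. The way the 414 were selected fixed this direction, since a gene at the floor on the parental array only could not be counted as lower. The 81 therefore describes the selection, is not comparable with the share among all measured genes, and is no result about genes like Pfn2.

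**Figure D5:**
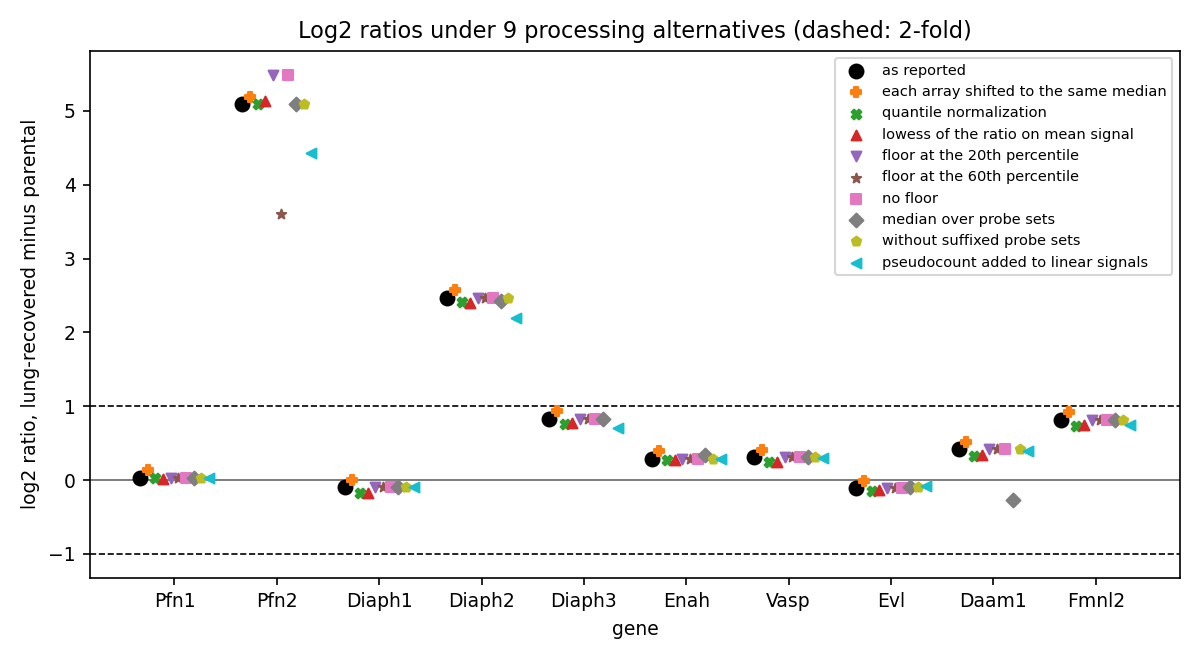
Log2 ratio of each of the 10 genes (x axis) as reported (black) and under 9 other ways of processing the same arrays (coloured symbols), with 2-fold as dashed lines. Pfn2 ranges from 3.60 to 5.49 and Diaph2 from 2.19 to 2.57, both above 2-fold throughout, and Daam1 crosses 0 under the median over its probe sets.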

How the data were processed

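Total RNA, 6 µg per array, was labelled with biotin by the Affymetrix protocol, per the labels' protocols. The deposited values are log2 signals with 2 decimals, and the base was taken from the values: the highest ones correspond, in base 2, to linear signals of 19484 and 19893. MAS5 appears in the submitters' processing notes, without a stated role. Probe summary, scaling between arrays and filters are not given in the sources used here, so values were used as deposited. Probe sets were named by the platform annotation, with symbols updated by Entrez identifier to the gene table of GRCm38.p6: 34945 of 45037 had 1 symbol, 932 had several and 9160 were not listed. Those without 1 symbol were not named. A gene was represented by its probe set of highest mean signal. With 1 array per group there was no test, p-value or error, and the number of arrays limits the precision. Genes were counted at 2-fold or more.

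The 10 genes and the other lists were chosen with earlier results of these data known, and 1 list is not reported here. All probe sets of the 10 genes and the remaining profilin and formin genes were named. From each pathway list the genes past 2-fold and the 3 largest ratios below it were named, with ties kept, and from each marker list the brightest gene and those past 2-fold. The 5 genes nearest to Pfn2 were named too. Any other gene named, such as a marker at the floor, was chosen after its values were seen. Alternatives were 3 scalings (equal medians, quantile, lowess, span 0.3), no floor or one at the 20th or 60th percentile, the median over probe sets, no suffixed probe sets, a pseudocount of 32 on the linear scale, and a 1.5-fold limit. Python 3.11.15, pandas 2.3.3 and statsmodels 0.14.6 were used, and the code was tested on simulated data.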

Additional observations from a re-analysis of the deposited data

How the results depend on the processing

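Pfn2 and Diaph2 stayed at least 2-fold higher, and none of the 10 genes was at least 2-fold lower, under all 9 alternatives of scaling, floor, probe set and pseudocount. The log2 ratio of Pfn2 was 5.49 for a floor at the 20th percentile or none, 3.60 for one at the 60th, and 4.42 with a pseudocount of 32 on the linear signals, which gave 2.19 for Diaph2. Such a pseudocount shrinks ratios of dim probe sets by construction, and it lowered the number of all measured genes at least 2-fold higher from 589 to 370. Daam1 was at -0.27 by the median over its probe sets. At 1.5-fold, 4 of the 10 genes were higher. The other ratios of the 10 genes moved by less than 0.18, the median SD between probe sets of a gene. Without suffixed probe sets Diaph3 was not measured, and Baiap2 (0.11) and Ccn1 (0.23) were within 2-fold. Mrtfa (0.85), Gpa33 (0.90) and Csf1r (0.89) were within 2-fold with the pseudocount, Ccn1 (0.81) and Csf1r (0.78) by the median over probe sets, and Cd68 (0.87) with the highest floor. Wasf1 (1.06), Krt18 (1.02) and Mtss1 (1.01) passed 2-fold after the arrays were shifted to the same median. Fhl1 reached 1.0 after lowess, and Gphn was at 1.17 by the median over its probe sets. No paired analysis was possible because each group has 1 array. Probe sets near the floor limit what can be said of dim genes, and single arrays limit all of it.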
